A study of Mus musculus with 4 samples.

Results

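The genes described here are 8 transcription factors that set cell identity in the pancreas: Sox9 and Onecut1 of the duct, Pdx1, Foxa2 and Gata6 of the early progenitor and the gut endoderm, and Ptf1a, Nr5a2 and Bhlha15 of the acinar cell. They were chosen by name and matched to the gene symbols of the array platform, and 8 of 8 were found, each with 1 transcript cluster, among 19938 genes with a symbol of their own. RNA came from cancer cell lines grown from mouse pancreatic tumors, with 1 Affymetrix array per line and no treatment. The TPAC lines were K459 and TCPA18654, whose labels give p65fl/fl beside the alleles common to both genotypes, and the TPC lines were TPC18645 and TPC20223, with the common alleles only. These are written Ela-TGFa, Ptg1a+/CRE and Trp53fl/fl. The 4 lines thus share a transgene for the growth factor TGF-α under the elastase promoter, which is active in acinar cells, a Cre allele that the methods name p48-Cre, and floxed p53 (Trp53). In TPAC lines p65, the RelA subunit of NF-κB, is floxed as well. Protein p48 is the product of Ptf1a, so 1 of the genes described here is also the Cre driver locus in both genotypes. The labels give neither age nor sex, nor whether lines of one genotype stem from different animals, so p-values measure only the spread between these lines, which may be technical.

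In the embryo, PDX1, PTF1A, SOX9 and their partners mark the progenitor cells of the pancreas, and the FOXA and GATA factors open the chromatin of endoderm genes before them. Later the programs part: PTF1A, NR5A2 and BHLHA15 (also called MIST1) maintain the acinar cell and its digestive enzymes, SOX9 and ONECUT1 (also called HNF6) maintain the duct, and PDX1 stays high in the beta cell. When acinar cells turn into duct-like cells under signals such as TGF-α, acinar factors are lost and SOX9 is gained, and in pancreatic cancer GATA6 and other endoderm factors mark the classical, epithelial state. No array of normal pancreas was used here, so each value is set only against the other lines.

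The deposited values are log2 signals from RMA, which gives all arrays nearly the same distribution, with medians of 7.24 and 7.21 in the TPAC lines and of 7.19 and 7.26 in the TPC lines. There is no detection call, so the 40th percentile of mean signal over all genes, 6.96, served as a line below which a gene is called dim. A second mark was the 95th percentile of 1027 olfactory receptor genes, which are hardly used outside the nose, at 6.38. Signals of different clusters depend on their probes, so values are compared between lines and not between genes. A bulk array cannot tell fewer cells of a type from less RNA per cell.

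The labelled cell type, pancreatic tumor cells, was checked against ductal and epithelial markers. In K459, TCPA18654 and TPC18645 keratin signals were high: the cytokeratin gene Krt19 had log2 signals of 12.65 and 11.79 in the TPAC lines K459 and TCPA18654 and of 11.74 in TPC18645. In TPC20223 it was 6.08, under the dim line. The collagen gene Col1a1 had 10.36 and 8.72 in the TPAC lines K459 and TCPA18654, against 8.53 in TPC18645 and 13.02 in TPC20223. Of 14 measured ductal markers 13 were lowest in TPC20223, against 38.8% of all genes, and the summed log2 signal of the list was 152.31 in K459, 139.71 in TCPA18654, 137.83 in TPC18645 and 97.28 in TPC20223. Of 10 fibroblast markers, 7 were highest in TPC20223 (28.1% of all genes were), with sums of 82.53 in K459, 74.78 in TCPA18654, 76.44 in TPC18645 and 93.20 in TPC20223. No marker is at 0 on this scale. TPC20223 therefore goes against the epithelial markers of its label. The factors' genotype differences are given with and without it, and the medians and counts of the gene lists with it.

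Of the ductal factors, Sox9 lay far above the dim line in every line. Its log2 signal was 11.56 in K459 and 10.14 in TCPA18654, against 10.21 in TPC18645 and 10.89 in TPC20223. The genotypes overlapped, because the highest and the lowest value both came from TPAC lines, and TPC20223, with the lowest keratins, held the second highest Sox9 signal. The TPAC lines averaged 10.85 ± 1.0 and the TPC lines 10.55 ± 0.48 (SD, n = 2 each). Onecut1 lay close to the dim line, with 7.50 and 7.0 in the TPAC lines K459 and TCPA18654 against 6.54 and 6.72 in the TPC lines TPC18645 and TPC20223. Both TPAC values lay above both TPC values and above the dim line, which neither TPC value reached. The means were 7.25 ± 0.35 in TPAC and 6.63 ± 0.13 in TPC lines (SD, n = 2 each).

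Pdx1 varied most. Its log2 signal was 9.85 in K459 and 7.46 in TCPA18654, against 7.76 in TPC18645 and 5.90 in TPC20223, a measured span of 3.95 on the log2 scale. K459 stood above the other 3 lines, TCPA18654 and TPC18645 were close to each other, and the TPC20223 value lay below the olfactory receptor mark. Set against that mark in place of the TPC20223 value, K459 was higher by at least 3.47, or at least 11.0-fold. On its array Pdx1 reached the 80.7th percentile of genes in K459 and the 21.9th in TPC20223. Foxa2, a pioneer factor of endoderm, had 9.04 and 9.23 in the TPAC lines K459 and TCPA18654 and 9.54 in TPC18645, but 7.03 in TPC20223, just over the dim line. Gata6, a zinc finger factor of endoderm, had the same lowest line, with 10.79 and 10.91 in K459 and TCPA18654 against 10.78 in TPC18645 and 9.64 in TPC20223. For both genes the first 3 lines lay close together and TPC20223 alone was lower, with Gata6 still far above the dim line.

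The acinar factors were dim in most lines. Ptf1a, the master regulator of acinar genes, had 6.13 and 5.95 in the TPAC lines K459 and TCPA18654 and 6.06 and 5.88 in the TPC lines TPC18645 and TPC20223. All 4 values lay within 0.25 of each other and below the olfactory receptor mark, so no signal above background can be claimed for the gene whose locus carries Cre. The sources do not say which part of that locus the Cre allele keeps. Bhlha15, a factor of acinar secretion, had 6.76 and 6.78 in K459 and TCPA18654 against 6.61 and 6.48 in TPC18645 and TPC20223, a span of 0.30 with 0 of 4 lines over the dim line. Nr5a2, a nuclear receptor also called LRH-1, was the exception: it had 6.40 and 6.39 in the TPAC lines K459 and TCPA18654 and 6.25 in TPC18645, but 7.89 in TPC20223. Only that value passed the dim line.

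**Figure D1:**
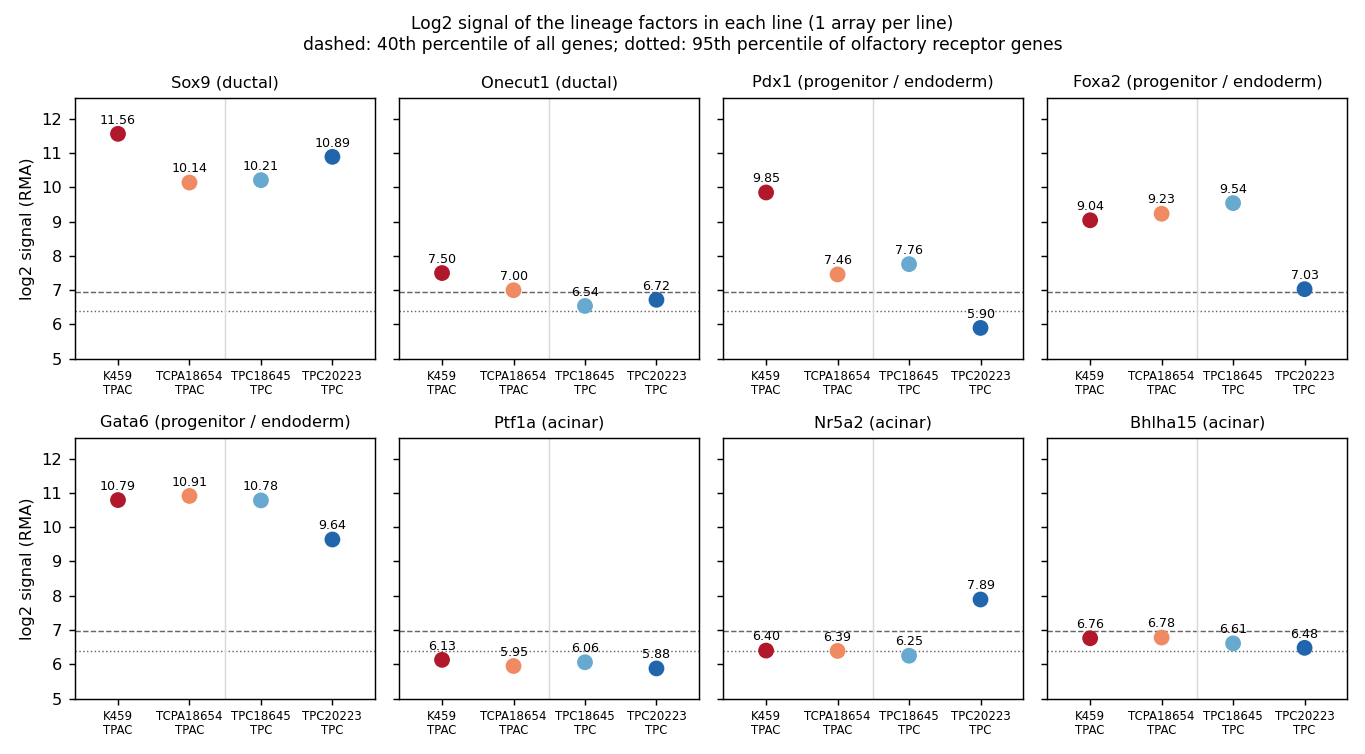
Log2 signal (y axis) of each factor in the 4 lines (x axis, TPAC lines left, 1 point per array); the dashed line is the 40th percentile of all genes (6.96) and the dotted line the 95th percentile of olfactory receptor genes (6.38). Pdx1 ran between 9.85 in K459 and 5.90 in TPC20223, Foxa2 and Gata6 were lower in TPC20223 alone, Nr5a2 was higher there alone (7.89), and the Ptf1a points all lay below the dotted line.

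The promoters of the genes that varied most between lines, Pdx1, Foxa2 and Nr5a2, are shown as the regulatory sequence next to these values. RefSeq promoters (GRCm38.p6) matched 6 of 8 factors, and Sox9 and Gata6 had none in the table. The 250 bases before the most upstream start are printed from 5′ to 3′ on the gene's strand, at chr5:147269847-147270096 (plus strand) for Pdx1, chr2:148046970-148047219 (minus strand) for Foxa2 and chr1:136960449-136960698 (minus strand) for Nr5a2. Capitals mark matches on either strand to CANNTG (the E-box of helix-loop-helix factors such as PTF1A and BHLHA15), AGATAA (the core that factors of the Gata6 family bind) or ATCAAT (the core of the Onecut1 family).
Pdx1: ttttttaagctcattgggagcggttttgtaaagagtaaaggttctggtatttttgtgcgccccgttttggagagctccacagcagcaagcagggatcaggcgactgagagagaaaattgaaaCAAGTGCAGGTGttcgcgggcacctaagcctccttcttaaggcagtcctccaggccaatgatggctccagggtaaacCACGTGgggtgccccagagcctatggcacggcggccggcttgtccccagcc
Foxa2: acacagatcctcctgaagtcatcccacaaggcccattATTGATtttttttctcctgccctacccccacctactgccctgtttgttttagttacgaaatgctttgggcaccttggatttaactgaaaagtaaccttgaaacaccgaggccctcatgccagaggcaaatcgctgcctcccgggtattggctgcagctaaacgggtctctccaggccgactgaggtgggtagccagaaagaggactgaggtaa
Nr5a2: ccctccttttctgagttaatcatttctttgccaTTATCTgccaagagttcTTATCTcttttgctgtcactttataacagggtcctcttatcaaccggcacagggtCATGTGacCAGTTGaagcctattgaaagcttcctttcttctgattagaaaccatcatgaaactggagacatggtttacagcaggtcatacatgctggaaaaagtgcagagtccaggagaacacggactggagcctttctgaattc
Pdx1 held E-boxes beginning 128, 122 and 51 bases before the start, the first 2 side by side. Nr5a2 held GATA matches at 217 and 200 bases and E-boxes at 145 and 137 bases, and Foxa2 held an ONECUT match, as ATTGAT on the printed strand, at 213 bases. Over the same window of 27025 genes, E-boxes stood in 66.1%, GATA matches in 10.2% and ONECUT matches in 6.95%. TGTTTAC (FOXA, 3.06% of genes), CAAGGTC (NR5A, 3.29%) and ACAATG (SOX, 10.9%) were in none of these 3 windows. Nor was the decamer motif of NF-κB, to which p65 belongs (1.18%). Each was searched in a single form, so variant sites may be present. None of the marked matches overlapped a match to another motif. A match is a description of the letters and no evidence of binding.

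The study set TPAC beside TPC cells to look for signaling events behind the nerve invasion that differs between these mice. Between the genotypes, 7 of 8 factors had a higher and 1 had a lower mean in TPAC lines, with a median log2 difference of 0.46 beside 0.01 over all genes. Of all 19938 genes, 10411 had a higher and 9320 a lower mean, which also stands beside such counts of the gene lists below. Without TPC20223, Ptf1a (-0.02) and Foxa2 (-0.41) turned lower in TPAC lines, Nr5a2 (0.14) turned higher, and the median was 0.15. None of the 8 passed limma's test (adjusted p = 0.989 for each, where a call needed at most 0.05 together with a log2 difference of at least 0.58 in size), and 0 of 8 had an unadjusted p under 0.05. In the same fit limma called 0 of 19938 genes (0.0%), while 38 higher and 46 lower genes had an unadjusted p under 0.05 with that difference. By the methods' test these counts were 8 and 7, and it also called 0. Since 2 TPAC and 2 TPC labels can be assigned in 6 ways, the smallest two-sided p of an exact permutation test on 1 gene is 0.333.

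Pdx1 had the largest difference of the 8, with 8.65 ± 1.69 in TPAC and 6.83 ± 1.32 in TPC lines (SD, n = 2 each). The log2 difference was 1.82 with a standard error of 1.11 and a 95% interval from -1.35 to 5.0, so the interval runs from a lower to a far higher Pdx1 signal in TPAC lines. It was 0.90 without TPC20223, 0.63 without K459 and 3.02 without TCPA18654. The TPC mean includes the TPC20223 value below the olfactory receptor mark. Foxa2 averaged 9.13 ± 0.13 in TPAC and 8.29 ± 1.77 in TPC lines (SD, n = 2 each), a difference of 0.85 that turned to -0.41 without TPC20223. Gata6 averaged 10.85 ± 0.08 in TPAC and 10.21 ± 0.81 in TPC lines, and its difference of 0.64 came to 0.07 without TPC20223. Nr5a2, the factor with the lower mean, averaged 6.39 ± 0.01 in TPAC and 7.07 ± 1.16 in TPC lines, and its difference of -0.68 was 0.14 without TPC20223.

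Onecut1 had the smallest unadjusted p of the 8 in limma's fit, 0.0574 (adjusted 0.989), with a difference of 0.62, a standard error of 0.23 and a 95% interval from -0.03 to 1.27. Its difference was 0.71 without TPC20223, 0.37 without K459 and 0.87 without TCPA18654, in the same direction each time. Bhlha15 differed by 0.23 (95% interval -0.14 to 0.59), Sox9 by 0.30 (-1.38 to 1.98) and Ptf1a by 0.07 (-0.36 to 0.50). The Sox9 difference was 0.64 without TPC20223, -0.41 without K459 and 1.01 without TCPA18654. Without TPC20223, Bhlha15 differed by 0.16 and Ptf1a by -0.02. Groups did not overlap for 3 of 8 factors, Onecut1, Gata6 and Bhlha15, all higher in TPAC lines, where 13.7% of all genes did so. For Gata6 the gap between the lower TPAC and the higher TPC value was 0.01. No factor was lower in both TPAC lines than in both TPC lines, against 13.3% of all genes.

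**Figure D2:**
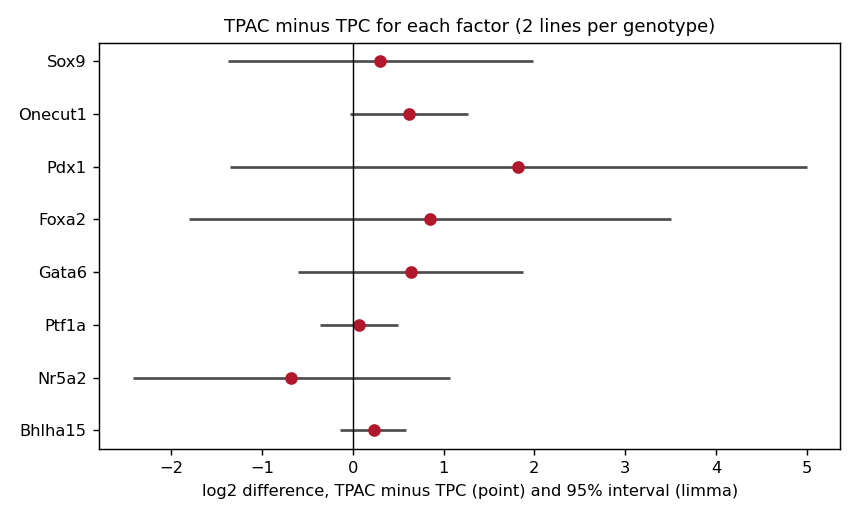
Log2 difference (x axis), TPAC minus TPC, of each factor (y axis); points are the limma estimates with 2 lines per genotype and bars the 95% intervals. All 8 intervals include 0, and the widest is that of Pdx1 (-1.35 to 5.0).

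Lines of one genotype also differed from each other. The factors' 4 values spanned at least 1 on the log2 scale in 5 of 8 cases, against 15.9% of all genes, and the median span was 1.34 beside 0.40 over all genes. Between the TPAC lines, K459 exceeded TCPA18654 at least 2-fold in Pdx1 (log2 difference 2.39) and Sox9 (1.42), and 2.62% of all genes did so. None of the 8 was at least 2-fold lower, against 1.25% of all genes. A difference as large as that of Pdx1 and in the same direction was found in 0.471% of genes, and as large as that of Sox9 in 1.51%. Onecut1 was higher in K459 by 0.50, and the other 5 factors differed by 0.19 or less in size.

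Between the TPC lines, TPC20223 was below TPC18645 at least 2-fold in Foxa2 (-2.51), Pdx1 (measured -1.86) and Gata6 (-1.14), the 3 progenitor and endoderm factors, and 5.28% of all genes were. For Pdx1, below the olfactory receptor mark in TPC20223, the value of TPC18645 exceeded the mark by 1.38, so TPC20223 was at least 2.6-fold lower. It was at least 2-fold above TPC18645 in Nr5a2 alone (measured 1.64, and 1.51 against the mark, which TPC18645 did not reach), and 5.97% of all genes were. Sox9 was higher in TPC20223 by 0.68 and Onecut1 by 0.18. Ptf1a and Bhlha15 differed by -0.18 and -0.13. TPC20223, the line with low keratin signals, was thus the lowest line in these 3 endoderm factors and not in Sox9, though its Gata6 signal (9.64) stayed far above the dim line. TPC20223 is also the line with the highest fibroblast marker sum, 93.20 against 76.44 in TPC18645, and the part of such RNA in these values was not tested.

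TCPA18654 and TPC18645 carry different genotype labels, yet the 8 factors differed by at most 0.46 between them, with a median of 0.15 in size beside 0.12 over all genes. That largest value was Onecut1, higher in TCPA18654, and 1.64% of genes were higher by as much. Pdx1 and Foxa2 were lower in TCPA18654, by 0.30 and 0.31. None of the 8 reached 2-fold here, and 0.12% of all genes were at least 2-fold higher and 0.15% lower. The labels do not say whether these lines share an origin.

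The other pairs of a TPAC and a TPC line repeat these values, since they share lines. Against TPC18645, K459 was at least 2-fold higher in Pdx1 (2.09) and Sox9 (1.35) and lower in 0 of 8, where 2.6% of all genes were higher and 1.74% lower. Against TPC20223, K459 was at least 2-fold higher in Pdx1 (at least 3.47, against the mark), Foxa2 (2.01) and Gata6 (1.15) and lower in Nr5a2 (-1.49), with 5.11% of all genes higher and 5.79% lower. TCPA18654 was higher than TPC20223 in the same 3 genes, Foxa2 (2.20), Pdx1 (at least 1.08, against the mark) and Gata6 (1.27), and lower in Nr5a2 (-1.50), with 4.55% of all genes higher and 6.33% lower. The difference between a TPAC and a TPC line in these factors was thus small or large according to which lines were paired.

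**Figure D3:**
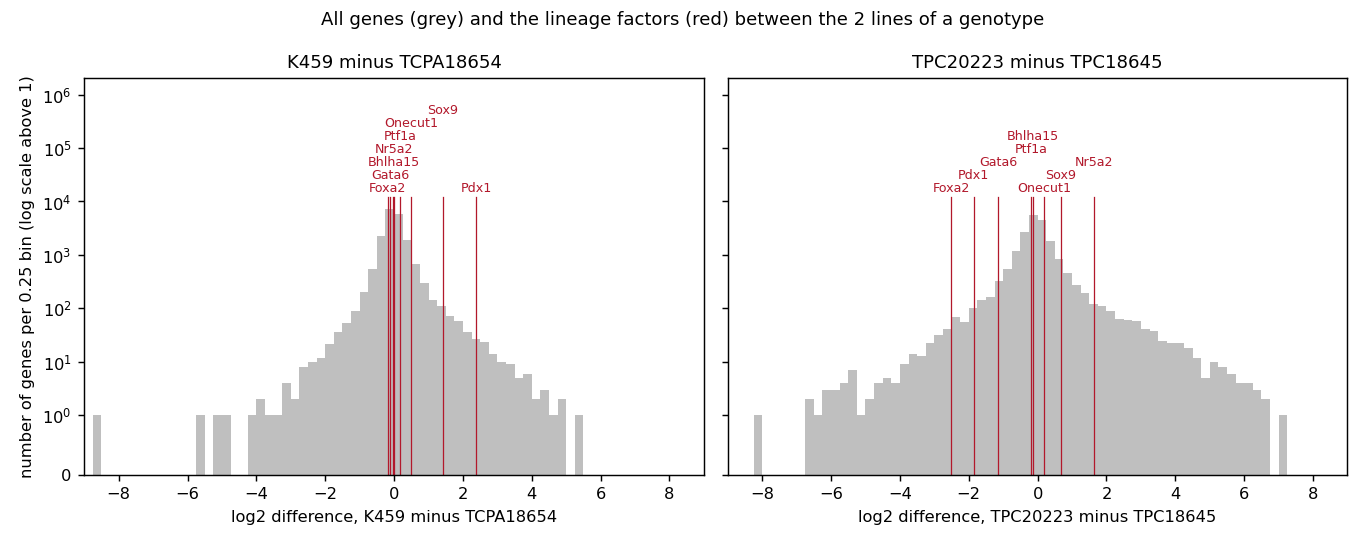
Number of genes (y axis, log scale above 1) by log2 difference (x axis, bins of 0.25) between the TPAC lines (left) and between the TPC lines (right), with the 8 factors as red lines. Pdx1 (2.39) and Sox9 (1.42) lie to the right in K459 minus TCPA18654, and in TPC20223 minus TPC18645 Foxa2 (-2.51), Pdx1 (-1.86) and Gata6 (-1.14) lie to the left and Nr5a2 (1.64) to the right.

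By role, the 3 progenitor and endoderm factors were all lowest in TPC20223, with a median deviation from their mean over the lines of -1.68 there, beside 0.33 in K459, 0.38 in TCPA18654 and 0.25 in TPC18645. The 2 ductal factors were both highest in K459 (median deviation 0.71), with -0.25 in TCPA18654, -0.44 in TPC18645 and -0.02 in TPC20223. The 3 acinar factors deviated by a median of 0.10 in K459, -0.05 in TCPA18654, -0.05 in TPC18645 and -0.12 in TPC20223, a median that hides the Nr5a2 value of TPC20223. Likewise the ductal median in TPC20223 joins Sox9 at 0.19 and Onecut1 at -0.22.

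Other endoderm factors were listed to see whether the 3 above were alone, and 15 of 18 were measured. None was called by limma in either direction, 13 had higher and 2 had lower means in TPAC lines, and the median difference was 0.80. In TPC20223, 11 of 15 were lowest (38.8% of all genes were) and 2 of 15 were highest (28.1% of all genes were). In that line 5 of 15 lay at least 2-fold below TPC18645, against 5.28% of all genes. Hnf4a, a nuclear receptor of liver and gut epithelium, had 11.84 in K459 and 10.93 in TCPA18654, against 10.99 in TPC18645 and 7.35 in TPC20223. Foxa1, the close relative of Foxa2, had 10.32 and 8.62 in K459 and TCPA18654 against 8.72 and 7.56 in TPC18645 and TPC20223. Hhex, a homeobox factor of the foregut, had 9.41 and 7.59 in K459 and TCPA18654 against 7.43 and 6.24 in TPC18645 and TPC20223. Foxa1 and Hhex thus had the order of Pdx1 at its ends, highest in K459 and lowest in TPC20223, whereas Foxa2 was highest in TPC18645. Of the 15 genes 11 were highest in K459, where 22.6% of all genes were.

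Epithelial and ductal-state factors gave a like picture in the genes of widest range. Of 10 measured, 7 lay above the dim line, 5 spanned at least 1 on the log2 scale and 0 were called by limma. The mean in TPAC lines was higher for 9 and lower for 1 (median difference 0.27). In TPC20223, 8 were lowest, against 38.8% of all genes. At least 2-fold below TPC18645 were 4 of 10, against 5.28% of all genes. Elf3, an ETS factor of epithelia, had 10.81 and 9.51 in K459 and TCPA18654 against 9.87 and 6.47 in TPC18645 and TPC20223. Ehf, another epithelial ETS factor, had 10.73 and 8.23 in K459 and TCPA18654 against 7.92 and 6.56 in TPC18645 and TPC20223. Tfcp2l1, a grainyhead-family factor, had 9.79 and 10.51 in K459 and TCPA18654 against 10.42 and 7.58 in TPC18645 and TPC20223. It was thus lowest in TPC20223 without being highest in K459, as Foxa2 and Gata6 were.

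**Figure D4:**
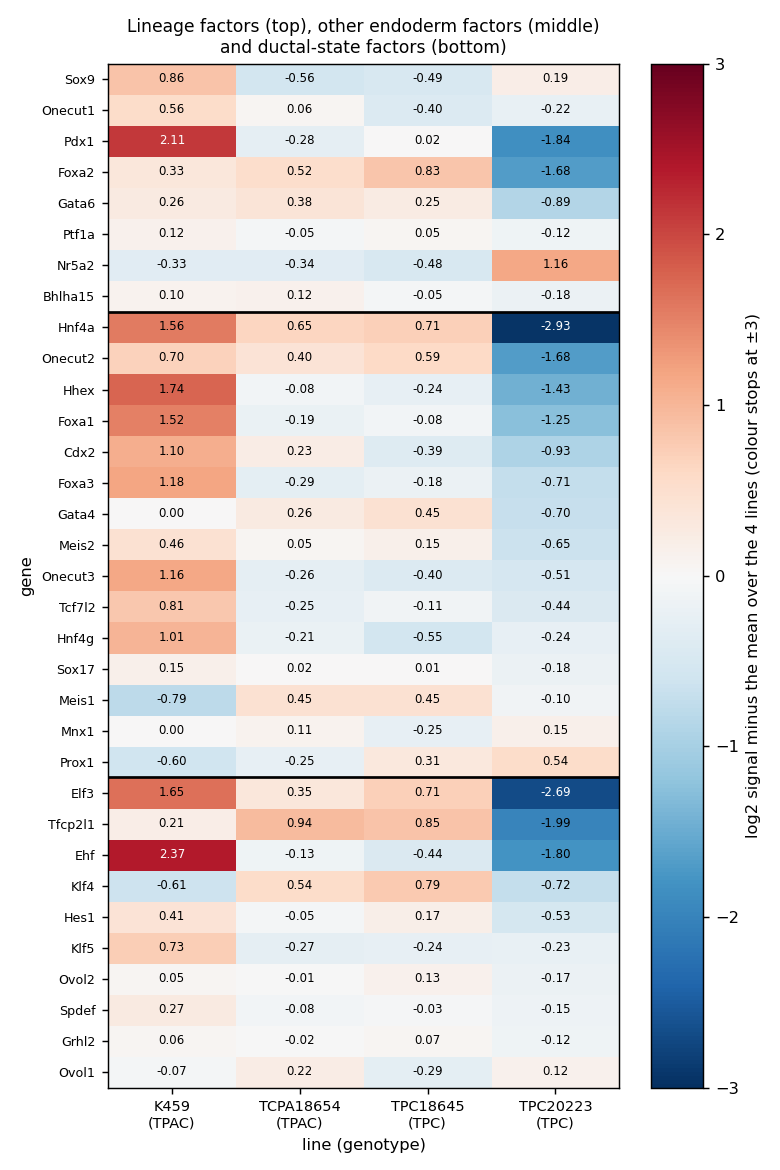
Log2 signal minus the mean over the 4 lines (colour and printed value) for each gene (y axis) in each line (x axis, TPAC lines left): lineage factors at the top, other endoderm factors in the middle, ductal-state factors at the bottom. Blue cells gather in TPC20223 (Foxa2 -1.68, Hnf4a -2.93, Elf3 -2.69) and red cells in K459 (Pdx1 2.11, Ehf 2.37), while Nr5a2 is red in TPC20223 alone (1.16).

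Partners and targets of the acinar factors were examined with the dim signals of Ptf1a and Bhlha15 in view. Rbpjl, the acinar partner of PTF1A, had 6.77 and 6.94 in the TPAC lines K459 and TCPA18654 and 6.86 and 6.98 in the TPC lines TPC18645 and TPC20223, with only the last value over the dim line. Its ubiquitous relative Rbpj, the Notch effector, had 11.35 and 11.25 in K459 and TCPA18654 against 11.06 and 11.79 in TPC18645 and TPC20223, and of 7 partner genes limma called 0 (median difference 0.07). Digestive enzyme and secretory genes, the targets of PTF1A and NR5A2, were measured for 19 of 22. None was called, 17 had lower and 2 had higher means in TPAC lines (median difference -0.25), and in 8 of 19 both TPAC values lay below both TPC values, against 13.3% of all genes. At the narrowest of these gaps, Ctrb1 had 7.03 in TCPA18654 against 7.05 in TPC20223. The list's median deviation from the mean over the lines was 0.31 in TPC18645 and -0.09 in TPC20223, beside -0.16 in K459 and -0.13 in TCPA18654. Of the 19, 12 were dim, and 18 of 19 were highest in TPC18645, where 5031 of 19938 genes were. The line with the highest Nr5a2 signal, TPC20223, was highest in 1 of 19, against 28.1% of all genes. A link between Nr5a2 and these genes was not tested.

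Ctrb1, a chymotrypsinogen gene, had 6.92 and 7.03 in the TPAC lines K459 and TCPA18654 against 8.11 in TPC18645 and 7.05 in TPC20223. Pla2g1b, a pancreatic phospholipase gene, had 7.33 and 7.59 in K459 and TCPA18654 against 7.96 and 6.92 in TPC18645 and TPC20223. Clps, the colipase gene, had 7.75 and 7.49 in K459 and TCPA18654 against 8.40 and 7.62 in TPC18645 and TPC20223. TPC18645 was the highest line each time. Its Ptf1a and Nr5a2 signals were below the olfactory receptor mark and its Bhlha15 signal was dim, so they have no order to set beside this. Among 4 targets of BHLHA15 limma called 0, and 2 of 4 lay above the dim line. A higher mean in TPAC lines was found for 4 of 4 (median difference 0.42). The lowest value was that of TPC20223 in 4 of 4, against 38.8% of all genes. At least 2-fold below TPC18645 was 1 of 4, against 5.28% of all genes. That gene was Rab3d, a GTPase gene of secretory granules. It had 9.47 in K459 and 9.47 in TCPA18654 against 9.67 in TPC18645 and 7.98 in TPC20223. Rab26 had 7.12 in TPC20223 against 7.15 in K459.

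The genes whose 4 values most resembled those of a factor were found by the largest deviation between both profiles, each centred on its mean over the 4 lines, among genes above the dim line. With 4 points per gene this is a description, and such matches are easily found: within 0.25 in every line there were 241 genes for Gata6, 91 for Nr5a2, 31 for Foxa2, 25 for Sox9 and 1 for Pdx1. Nearest to Pdx1 was Cpn1, a carboxypeptidase N gene, with 9.75 and 7.71 in the TPAC lines K459 and TCPA18654 against 7.94 and 5.94 in the TPC lines TPC18645 and TPC20223 (largest deviation 0.19). Next came Slc44a3 (0.30) and Gcnt3 (0.37), a mucin-type glycosyltransferase gene. Foxa2 was matched by Hsd17b14 (0.09), Tinagl1 (0.10) and Tnfrsf22 (0.10), and Gata6 by Tbk1 (0.06), Fam83g (0.06) and Trib1 (0.07). For Sox9 the nearest were Ppp1r13b (0.06), Adh1 (0.07) and Etv4 (0.07), the last an ETS factor gene. Nr5a2 was followed most closely by Bean1 (0.02), Ptbp2 (0.06) and Lrrc15 (0.06). The tolerance is the same for all factors, so a wide span such as that of Pdx1 leaves fewer matches than a narrow one.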

How the data were processed

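Total RNA of 4 cell lines was hybridised to Affymetrix Mouse Gene 1.0 ST arrays. The authors deposited log2 signals made by RMA; Affymetrix Expression Console 1.4 stands in the submitters' processing notes, with no filter stated. Of 28941 clusters, 21789 had 1 symbol, 1621 several and 5531 none here; 21698 matched RefSeq by Entrez number, which changed 0 symbols. The brightest cluster stood for each of 19938 genes, dim ones included. The genotypes were tested with limma 3.58.1 (two-sided, after lmFit and eBayes, in R 4.3.3), p-values were adjusted over all genes by the Benjamini-Hochberg procedure, and thresholds were those of the study's methods. The number of arrays limits the precision. The factors and 15 gene lists were chosen with earlier results of these data known. Named genes were the 8 factors, genes from the 3 of widest range above the dim line of each list, and the 3 nearest profiles of each factor that spanned at least 1; Rbpjl was chosen after its values were seen. Steps were tested on simulated data. There limma called 0 of 50 genes given a log2 change of 1 and 23 of 50 given a change of 2. It called 29 of 50 at a change of 3 and 38 of 50 at 4. A change of 1 would thus be missed with these numbers of arrays. The closing section gives the alternatives.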

Additional observations from a re-analysis of the deposited data

How the results depend on the processing

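The count of called factors was 0 of 8, and that of called genes 0, with arrays set to a common median, cyclic loess, a mean over each gene's clusters, an intensity trend, genes above the 40th percentile, the methods' test and each line left out; the smallest adjusted p of a factor in limma was 0.108, for Foxa2 without TPC18645. At an unadjusted p under 0.05 there were 1269 higher and 1585 lower genes without TPC18645, and 12 and 7 without K459. The median log2 difference of the factors was 0.46; it was 0.74 over the 4 of 8 above the 40th percentile, and 0.15 (without TPC20223) to 0.67 (without TCPA18654) with 1 line left out. Over these omissions the differences ran from -0.02 to 0.16 for Ptf1a, -0.41 to 1.01 for Sox9, -0.41 to 2.10 for Foxa2 and -1.50 to 0.14 for Nr5a2, which changed direction, and Pdx1 (0.63 to 3.02), Onecut1 (0.37 to 0.87), Gata6 (0.07 to 1.21) and Bhlha15 (0.16 to 0.29) did not. The cause was not tested. A lone array left in a group is taken to vary like the other genotype. Both scalings moved the median of all genes by 0.02 in size. By the olfactory receptor mark 1 factor, Ptf1a, and not 4 would be dim. A search of all genes changed 1 of the 3 nearest profiles of Nr5a2 and none of the other 4 factors'. No paired analysis was possible because the labels pair no lines.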

Other observations

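Of 12 endocrine factors measured, 6 were dim, limma called 0, and 6 were highest in TPC20223, where 28.1% of all genes were. Nkx2-2, an islet homeobox factor picked after its values were seen, had 6.43 and 6.28 in the TPAC lines K459 and TCPA18654 against 6.31 in TPC18645 and 7.96 in TPC20223, so that, as for Nr5a2, TPC20223 alone passed the dim line. Glis3, a zinc finger factor of the islet, had 10.13 and 9.28 in K459 and TCPA18654 against 9.36 and 10.78 in TPC18645 and TPC20223. Pax6 ran the other way, with 9.01 and 7.91 in K459 and TCPA18654 against 8.17 and 7.29 in TPC18645 and TPC20223. Of 7 islet hormone and granule genes, 0 spanned 1 or more on the log2 scale and 0 were highest in TPC20223. Immune markers were dim for 7 of 8 genes, where by definition 40% of all genes are. The exception was Cd68, with 7.66 and 8.60 in K459 and TCPA18654 against 8.60 and 6.66 in TPC18645 and TPC20223. Summed log2 signals of the list were 49.36 and 49.97 in the TPAC lines K459 and TCPA18654. In TPC18645 and TPC20223 they were 49.51 and 47.89. Endothelial markers were dim for 5 of 6 genes. Of 4 Schwann cell markers measured, 3 lay above the dim line, among them Mbp with 8.14 and 8.33 in the TPAC lines K459 and TCPA18654 against 8.32 and 7.39 in TPC18645 and TPC20223. These samples were cultured lines, and the part of other cell types in the values above was not tested.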
